A study of Mus musculus with 7 samples.

Results

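Transcripts of the fatty acid synthesis pathway and its regulators were examined in newborn livers that lack glycerol kinase, the enzyme that turns glycerol into glycerol 3-phosphate. The genes are Acly, Me1, Acaca, Acacb, Fasn, Elovl6, Scd1, Srebf1, Mlxipl and Thrsp, 10 of the 18193 genes with a probe set of their own. They were chosen for their role in the pathway, with earlier results of these data known. They have 23 probe sets, taken as all those whose platform annotation gives 1 of the 10 names and no other. One group was 4 livers of glycerol kinase knockout mice, and the other was 3 livers of age-matched wild type littermates. All 7 mice were C57BL/6J males on day of life 1, an age at which the submitters describe the knockout pups as still without signs of disease. Each liver was extracted by itself and hybridised to 1 Affymetrix Mouse Genome 430 2.0 array, so arrays stand for separate animals. The labels used here do not describe the knockout allele, and the targeted transcript is not reported here.

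The pathway turns citrate into long-chain fatty acids in the cytosol. Acly splits citrate into acetyl-CoA, the carboxylases Acaca and Acacb make malonyl-CoA, and Fasn joins these units into palmitate with NADPH that malic enzyme (Me1) and other dehydrogenases supply. Elovl6 lengthens palmitate and Scd1 introduces a double bond, so that the products can enter triglyceride. In liver the pathway is driven mainly by SREBP1, the product of Srebf1, which acts downstream of insulin, and by ChREBP, the product of Mlxipl, which responds to sugar metabolites. It is known to run low in rodent liver during suckling, when milk supplies fat, and to rise at weaning.

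Me1 and Mlxipl were higher in knockout liver by about the same amount, while the other enzymes and Srebf1 showed no change that passed the test. Me1 averaged an intensity of 955 ± 251 in knockout and 294 ± 24.7 in wild type livers (SD, n = 4 and 3), and Mlxipl 1485 ± 342 in knockout and 481 ± 54.3 in wild type livers. Scd1 was lower in every knockout array than in any wild type array, at 530.0 ± 345 in knockout and 1637 ± 694 in wild type livers, and lay at the threshold without passing it. An intensity is the brightness of a probe set on a linear scale, as deposited, and levels of different probe sets cannot be compared with each other. Tests used limma on log2(intensity + 16), adjusted over 22518 probe sets of sufficient brightness by the Benjamini-Hochberg method, with an adjusted p under 0.05 as the threshold. With 7 arrays the precision is limited by their number.

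One array stood apart from the rest and bears on several of these genes. Knockout 3 carried messenger RNA of exocrine pancreas: Ctrb1, which encodes a chymotrypsinogen, read 3162.7 there, against 5.1 to 10.9 in the other knockout arrays and 7.5 to 12.3 in wild type arrays. The carboxypeptidase gene Cpa1 read 497.9 in knockout 3, against 5.8 to 8.8 in the other knockout and 6.5 to 17.8 in wild type arrays, and the lipase gene Cel read 362.5 there, against 25.4 to 82.0 and 68.4 to 74.9. Values without knockout 3 are given beside the main results. The same array had the highest ratios of 3' to 5' control signal, with 11.1 for the transferrin receptor, against 7.22 to 7.32 in the other knockout arrays and 7.91 to 8.24 in wild type arrays. For pyruvate carboxylase the ratio was 7.28 in knockout 3, 3.46 to 4.84 in the other knockout arrays and 5.40 to 6.39 in wild type arrays. Without knockout 3 these ratios were thus lower in knockout, while those of actin and Gapdh overlapped. The part of this difference in the results was not tested.

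Markers of other cell types were summed on each array. All 8 measured hepatocyte markers, such as Alb and Ttr, were bright, and their summed intensity ran from 247652 to 320811 in knockout and from 261308 to 295229 in wild type arrays. Fat cells also make fatty acids, and of 6 measured adipocyte markers the defining ones Adipoq, Lep, Retn and Ucp1 stayed at or below 69.3 on every array. The sum of all 6 ran from 4355 to 7314.6 in knockout and from 7381.7 to 11601.6 in wild type arrays, nearly all of it from Fabp4, which other cell types use as well. The sum of 8 markers of red cell precursors was lower in every knockout array, 55374 to 59897.3, than in wild type arrays, 68223.8 to 76324.6, and 2 of these markers fell past the threshold. The sum of 6 endothelial markers was likewise lower in every knockout array, 7198.3 to 12648.5, than in wild type arrays, 12708.6 to 15212.7. These ranges nearly met, most of the sum came from Lyve1 and Stab2, and 0 of the 6 passed with limma. Stab2, at -0.51, and Lyve1, at -0.71, were lower in every knockout array. Tek, at 0.61, was higher in every one, and each of these had an unadjusted p under 0.05. Pecam1, Kdr and Cdh5 overlapped between the groups. The macrophage sum overlapped too, at 17353.7 to 22562.5 in knockout and 15789.6 to 21033.9 in wild type arrays. So did the stellate cell sum, at 16295.6 to 25713.5 in knockout and 18629.1 to 23458.7 in wild type arrays. The part of the red cell, endothelial and adipocyte sums in the results was not tested, and a smaller number of cells of a type cannot be told apart from less RNA per cell.

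Of the 23 probe sets, 16 were bright enough to be tested, and they cover 9 of the 10 genes, all but Thrsp. Of these 16 probe sets 3 were higher in knockout past the threshold and 0 were lower, where 4.24% of all tested probe sets passed in either direction, 2.35% upward and 1.89% downward with limma. At an unadjusted p under 0.05, 5 of the 16 were higher, those of Me1 and Mlxipl and 2 of Acly, and 2 were lower, both of Scd1; 21.7% of all tested probe sets were under that p. With arrays scaled to equal medians, 71.3% of the calls over all probe sets were higher in knockout, in place of 55.4%. When each gene was represented by its brightest probe set, 2 of 9 genes passed, both higher, against 4.76% of 11159 genes, with 3.09% higher and 1.67% lower. In 5 of the 16 probe sets the groups did not overlap, a share to be read against 21.1% of all tested probe sets. All knockout arrays were higher in 4 of the 5, against 9.4% of all, and lower in 1, against 11.8%. The median log2 fold change of the 9 genes was 0.37, with 8 above 0 and 1 below, beside a median of -0.0013 and 49.9% above 0 over all tested genes. Without knockout 3 the same 3 probe sets passed, against a background of 4.13%, but 5 genes were above 0 and 4 below, with a median of 0.25.

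**Figure D1:**
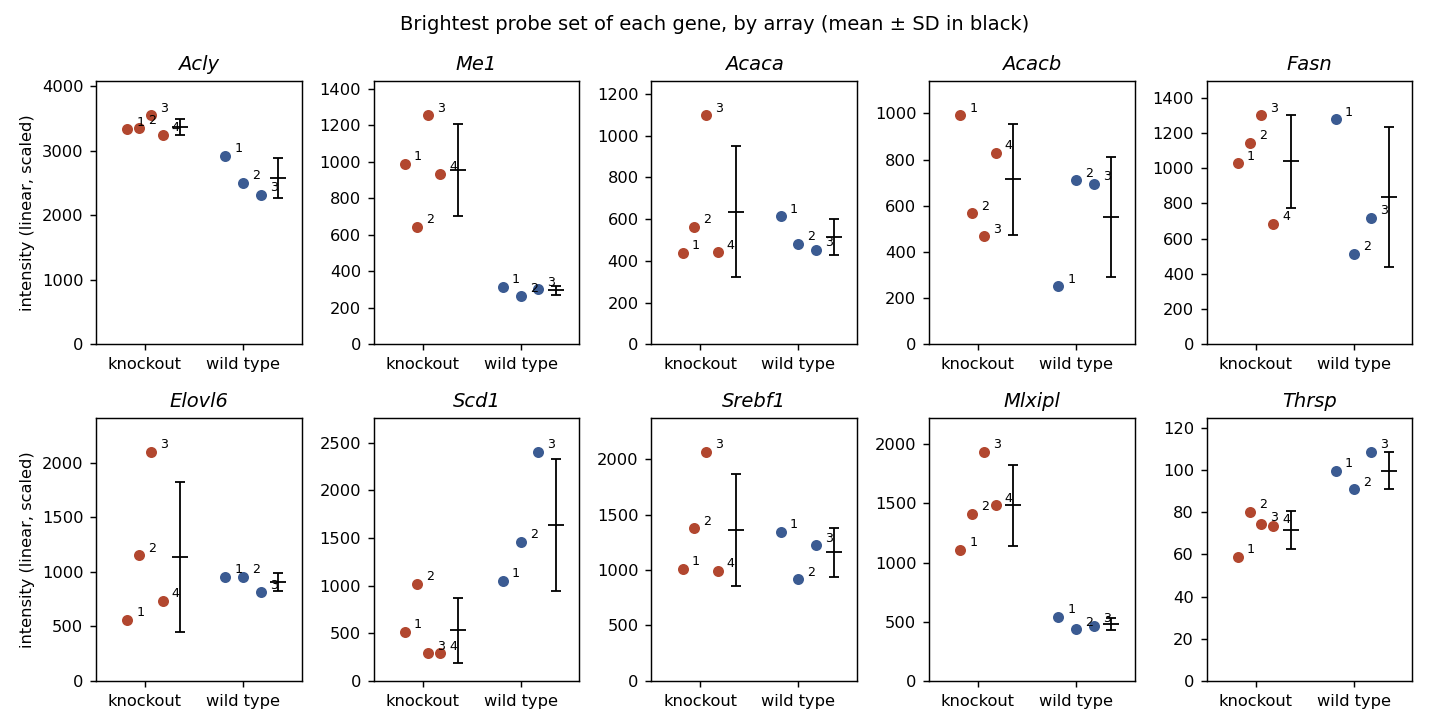
Intensity (linear scale) of the brightest probe set of each gene in 4 knockout arrays and 3 wild type arrays, numbered by replicate, with mean ± SD in black and each axis starting at 0. The knockout points of Acly, Me1 and Mlxipl lie above every wild type point, and those of Scd1 and Thrsp below. Knockout 3 is the highest knockout point for 7 genes, among them Acaca, Elovl6 and Srebf1.

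Me1, cytosolic malic enzyme, makes NADPH for chain synthesis by turning malate into pyruvate. Its brighter probe set, 1430307_a_at, read 988.9, 642.1, 1253.5 and 934.4 in knockout 1 to 4, against 314.5, 266.7 and 301.5 in wild type 1 to 3. The second, 1416632_at, read 666.3, 499.0, 670.8 and 713.0 in knockout livers, against 201.8, 221.7 and 172.9 in wild type livers. On both probe sets the lowest knockout array was more than 2 times the highest wild type array. The log2 fold changes were 1.61 ± 0.21 (limma adjusted p = 0.0060) and 1.599 ± 0.18 (limma adjusted p = 0.0025), about 3.05-fold and 3.03-fold. Without knockout 3 they were 1.47 and 1.57 and both passed (adjusted p = 0.0073 and 0.0053). The brighter probe set passed whichever array was left out, with log2 fold changes from 1.47 to 1.78.

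Mlxipl encodes ChREBP, a factor that binds DNA together with its partner Mlx and that drives genes of sugar use and fat synthesis. Its only probe set read 1106.8, 1414.5, 1934.9 and 1485.0 in knockout 1 to 4, against 541.1, 435.6 and 466.1 in wild type 1 to 3. The groups were far apart, since the lowest knockout value was more than 2 times the highest wild type value. Mlxipl rose by 1.57 ± 0.19 on the log2 scale, 2.98-fold (limma adjusted p = 0.0038). It rose by 1.44 without knockout 3 (adjusted p = 0.0050) and passed whichever array was left out, at 1.44 to 1.70.

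Promoters of the pair of genes that rose are shown because factors of this pathway act through short elements close to the transcript start. Each line is the 250 bases before a start in RefSeq (GRCm38.p6), on the strand of the gene, 5′ to 3′. Capitals mark, on either strand, CACGTG (the E-box), CCAAT (the CCAAT box), GGGCGG (the GC box) and TCACNCCAC (a sterol regulatory element).
Me1, chr9:86695915-86696164, minus strand: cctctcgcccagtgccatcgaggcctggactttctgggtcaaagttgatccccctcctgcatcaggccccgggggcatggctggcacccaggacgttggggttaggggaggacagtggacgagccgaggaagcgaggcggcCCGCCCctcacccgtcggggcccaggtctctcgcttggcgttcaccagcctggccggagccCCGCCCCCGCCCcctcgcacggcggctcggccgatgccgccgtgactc
Mlxipl, upstream start, chr5:135089640-135089889, plus strand: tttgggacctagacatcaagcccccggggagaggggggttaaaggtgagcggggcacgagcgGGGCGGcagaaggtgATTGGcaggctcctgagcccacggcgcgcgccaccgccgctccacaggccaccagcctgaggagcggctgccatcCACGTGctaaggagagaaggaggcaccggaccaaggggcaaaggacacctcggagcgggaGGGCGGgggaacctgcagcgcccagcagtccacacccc
Mlxipl, downstream start, chr5:135106641-135106890, plus strand: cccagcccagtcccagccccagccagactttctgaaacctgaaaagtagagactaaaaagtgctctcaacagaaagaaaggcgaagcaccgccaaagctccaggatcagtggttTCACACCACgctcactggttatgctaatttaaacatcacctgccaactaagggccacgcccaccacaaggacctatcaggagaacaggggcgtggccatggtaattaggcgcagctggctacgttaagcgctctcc

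The starts of Mlxipl lie 17001 bases apart, and the upstream window holds an E-box 98 bases before the start, where 6.02% of 32851 promoter windows of this length hold one. The downstream window holds the sterol element 136 bases before the start, found in 1.05% of windows. Which start the probe set of Mlxipl measures was not tested. Me1 has another start further downstream, not shown; the window printed has 3 GC boxes on the opposite strand, at 109, 48 and 42 bases before the start, and 32.7% of windows hold at least 1. Promoter sequence was matched for 9 of the 10 genes, in 13 windows. CCAAT boxes, present in 33.8% of windows, were in at least 1 window of Acacb, Fasn, Me1, Mlxipl, Srebf1 and Thrsp, so genes that passed and genes that did not both have them. An element of these letters is a description of the window, not a bound site.

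Srebf1 differed little between the groups. Its probe set read 1010.2, 1375.9, 2064.4 and 993.4 in knockout 1 to 4, against 1346.2, 916.2 and 1222.9 in wild type 1 to 3, and the groups overlapped. The log2 fold change was 0.18 ± 0.26, with a 95% interval from -0.39 to 0.75 (limma adjusted p = 0.735), and it was -0.042 without knockout 3, the array with the pancreas signal. The change of Mlxipl was set against that of Srebf1 within each array, a comparison chosen after the values had been seen and free of the scaling between arrays. With the wild type mean set to 0, the log2 difference of Mlxipl minus Srebf1 was 1.36, 1.27, 1.14 and 1.80 in knockout 1 to 4, against -0.058, 0.187 and -0.129 in wild type 1 to 3. The groups differed by 1.39 (two-sided exact permutation p = 0.0286, which no split of 35 can go below, and 0.0857 adjusted over 3 such comparisons). Mlxipl by itself already separated the groups, so this p is no further result. The adjustment does not cover the other pairs of genes that could have been chosen. Without knockout 3 the difference was 1.48.

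Scd1, which puts the first double bond into stearate and palmitate, was the only one of the 9 tested genes with a lower mean in knockout by its brightest probe set. That probe set, 1415964_at, read 515.9, 1022.8, 290.2 and 291.1 in knockout 1 to 4, against 1049.0, 1457.9 and 2403.0 in wild type 1 to 3. The groups did not overlap, though knockout 2 and wild type 1 were close to each other. The log2 fold change was -1.71 ± 0.42, with a 95% interval from -2.64 to -0.77, and the limma adjusted p = 0.0508 missed the threshold. The exact permutation p was 0.0571 (two-sided). It passed without knockout 2, at -2.08 (adjusted p = 0.0189), and with arrays scaled to equal medians, at -1.65 (adjusted p = 0.0481). Leaving out any of the other 6 arrays in turn gave -1.98 to -1.39, without passing.

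The other Scd1 probe set, 1415965_at, had the same direction with overlapping groups. It read 141.1, 439.2, 32.9 and 104.6 in knockout 1 to 4, against 318.8, 389.6 and 833.5 in wild type 1 to 3, a log2 fold change of -1.76 ± 0.62 (limma adjusted p = 0.133). Its knockout values spanned 13.3-fold, and the wild type values 2.61-fold; the knockout span was 4.20-fold without knockout 3. Without knockout 3 the log2 fold changes were -1.49 for the brighter probe set and -1.25 for the dimmer one. Scd1 was also set against Fasn and Elovl6 within arrays, comparisons likewise chosen after the values had been seen. The group differences were -2.08 for Scd1 minus Fasn and -1.85 for Scd1 minus Elovl6, each with an exact permutation p of 0.0857 (two-sided, and 0.0857 adjusted over the 3 comparisons). Knockout 3 had the lowest value in both, and without it the differences were -1.75 and -1.29.

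**Figure D2:**
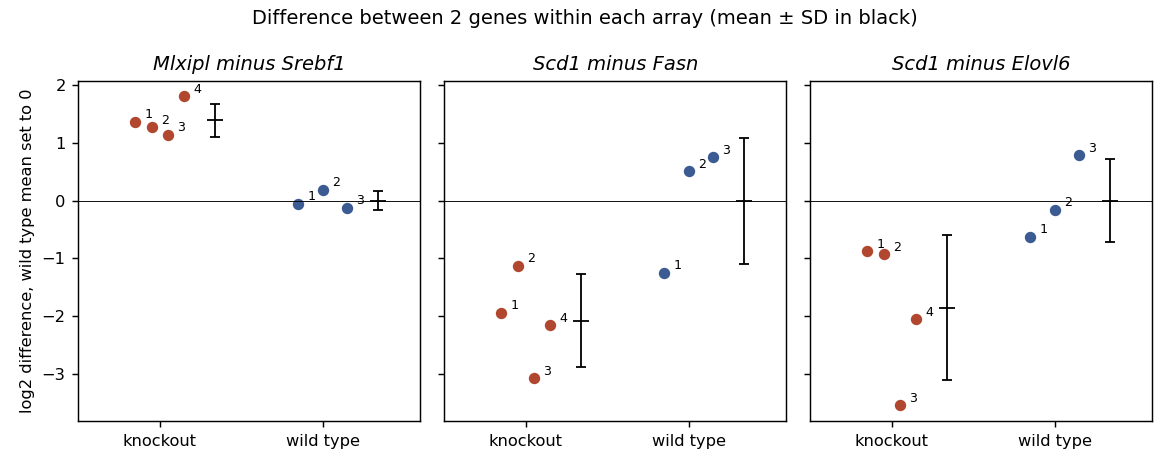
Difference in log2(intensity + 16) between the brightest probe sets of 2 genes within each array, with the wild type mean set to 0, for 4 knockout and 3 wild type arrays; black marks are mean ± SD. For Mlxipl minus Srebf1 the knockout arrays lie between 1.14 and 1.80 and the wild type arrays between -0.129 and 0.187, whereas knockout 2 lies above wild type 1 for Scd1 minus Fasn.

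Acly, ATP citrate lyase, had 3 tested probe sets that did not move alike. The brightest, 1451666_at, read 3331.7, 3358.1, 3549.0 and 3245.4 in knockout 1 to 4, against 2924.2, 2506.2 and 2318.8 in wild type 1 to 3. These groups did not overlap, but the difference was small, 0.39 ± 0.12 on the log2 scale or 1.31-fold, and did not pass (limma adjusted p = 0.107; exact permutation p = 0.0286, two-sided), nor without knockout 3, at 0.36. Probe set 1425326_at was at 0.55 ± 0.19 (adjusted p = 0.121) and the x-type probe set 1439459_x_at at 0.052 ± 0.12. The remaining 3 Acly probe sets read at most 61.2 and were too dim to be tested.

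Acaca, the cytosolic carboxylase that makes malonyl-CoA for synthesis, read 437.0, 562.4, 1097.4 and 441.3 in knockout 1 to 4 on its brighter probe set, against 613.1, 480.5 and 451.6 in wild type 1 to 3. Knockout 3 was the only knockout array above all wild type arrays. The log2 fold change was 0.20 ± 0.30 (limma adjusted p = 0.747) with that array and -0.095 without it. A dimmer Acaca probe set, 1427595_at, did not follow knockout 3. It read 131.9, 177.1, 120.3 and 95.1 in knockout 1 to 4, against 105.1, 80.0 and 78.2 in wild type 1 to 3, with a log2 fold change of 0.48 ± 0.23 (adjusted p = 0.262).

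Acacb, whose product lies at the outer mitochondrial membrane and makes the malonyl-CoA that restrains fatty acid entry, varied most among the wild type livers. Its probe set read 991.3, 567.0, 467.7 and 828.6 in knockout 1 to 4, against 251.6, 709.2 and 693.7 in wild type 1 to 3. The groups overlapped, with a log2 fold change of 0.44 ± 0.37 (limma adjusted p = 0.528). The direction rested on wild type 1, since the value was -0.036 without that array; it was 0.62 without knockout 3.

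Fasn, the synthase itself, read 1026.5, 1144.2, 1299.9 and 682.9 in knockout 1 to 4, against 1277.2, 513.2 and 717.9 in wild type 1 to 3. Wild type 1 was brighter than 3 of the 4 knockout arrays, and the groups overlapped. The log2 fold change was 0.37 ± 0.30, with a 95% interval from -0.30 to 1.04 (limma adjusted p = 0.518). Leaving out knockout 3 gave 0.25, leaving out wild type 1 gave 0.72 and leaving out wild type 2 gave 0.076, and it did not pass in any of these.

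Elovl6, which lengthens palmitate to stearate, spread more among knockout than among wild type livers, in large part through knockout 3. Its brightest probe set read 561.5, 1150.9, 2098.9 and 736.0 in knockout 1 to 4, a 3.74-fold span, against 955.0, 952.8 and 811.8 in wild type 1 to 3, a 1.18-fold span; without knockout 3 the knockout span was 2.05-fold. The log2 fold change was 0.15 ± 0.36 (limma adjusted p = 0.858), and -0.21 without knockout 3. Probe set 1417403_at had the same order of knockout arrays, with 359.9, 637.0, 1375.0 and 423.2 in knockout 1 to 4, against 679.6, 665.3 and 532.4 in wild type 1 to 3, and its log2 fold change was -0.036 with knockout 3 and -0.42 without it. The third, 1442656_at, did not: knockout 3 read 134.3 there, within the 117.7 to 177.5 of the other knockout arrays.

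Thrsp, a small nuclear protein known for its response to thyroid hormone and for its tie to fat synthesis, was dim on all 3 of its probe sets. The brightest read 59.0, 80.3, 74.4 and 73.3 in knockout 1 to 4, against 99.8, 90.9 and 108.6 in wild type 1 to 3. The groups did not overlap, but the probe set lay below the filter and was not in the test. With no filter its log2 fold change of -0.40 ± 0.23 had a limma adjusted p of 0.485. The other probe sets of Thrsp read at most 66.1 on every array, so the level of this gene is poorly measured here.

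**Figure D3:**
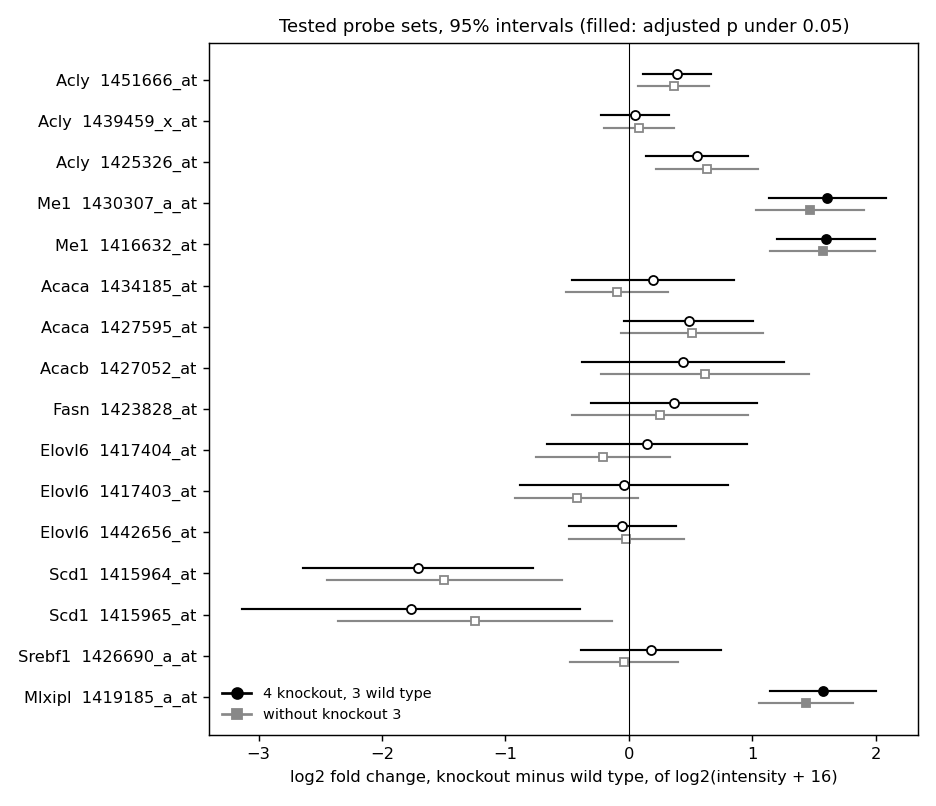
Log2 fold change of the 16 tested probe sets, knockout minus wild type, with 95% intervals, from all 7 arrays (black circles) and without knockout 3 (grey squares); filled symbols passed an adjusted p of 0.05. The probe sets of Me1 and Mlxipl passed in both fits, and those of Acaca 1434185_at, Elovl6 1417404_at and Srebf1 changed sign without knockout 3.

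In each group 1 array was the highest for most of the genes. By the brightest probe set, knockout 3 had the highest knockout value for 7 of the 9 tested genes, namely Acly, Me1, Acaca, Fasn, Elovl6, Srebf1 and Mlxipl, and the lowest for Acacb and Scd1. Wild type 1 had the highest wild type value for the same 7 genes and the lowest for the same 2. The lowest value for those 7 genes was spread over knockout 1, 2 and 4 and over wild type 2 and 3. Its pancreas markers were low, with a sum of 90.5 over 3 genes, against 4023.1 in knockout 3 and 88.8 to 101.4 in the other wild type arrays. The deviation of knockout 3 from the knockout mean was 0.88 for Acaca, 1.06 for Elovl6 and 0.66 for Srebf1 on the log2 scale. Wild type 1 deviated from the wild type mean by 0.26, 0.078 and 0.23 for the same genes, by 0.70 for Fasn and by -0.95 for Acacb. Knockout 2 was the highest knockout array for Scd1 alone, 1.12 above the knockout mean, and the lowest for Me1. The part of the pancreas signal and of the 3' to 5' ratio in the knockout 3 values was not tested.

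**Figure D4:**
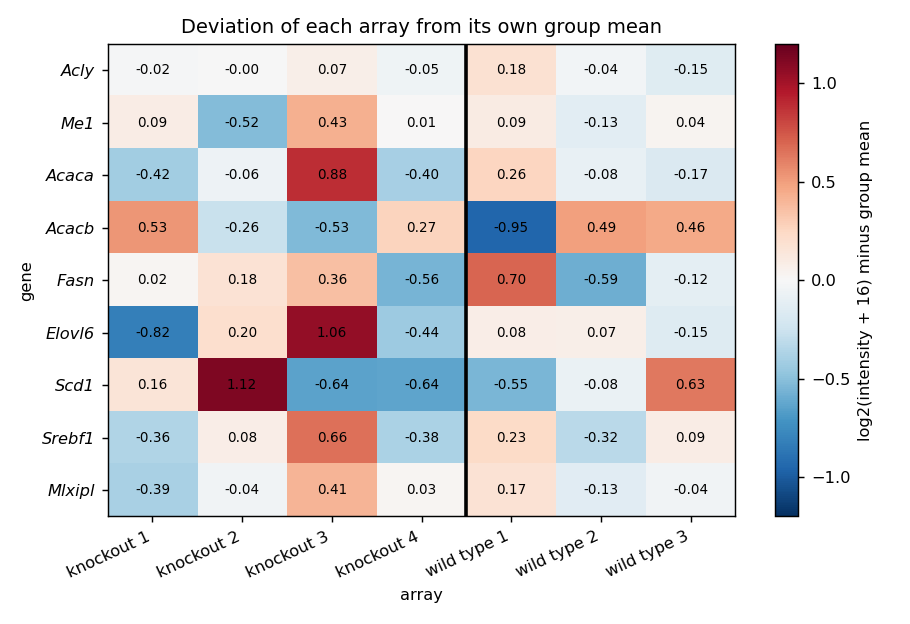
Deviation of log2(intensity + 16) from the array's own group mean, for the brightest probe set of the 9 tested genes (rows) in 4 knockout and 3 wild type arrays (columns). Knockout 3 and wild type 1 are above their group means for 7 genes and below them for Acacb and Scd1.

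The transcripts whose values ran most like those of Fasn, Srebf1 and Mlxipl over the 7 arrays were found among 11158 other genes, by Pearson r of log2 values. For Mlxipl they were Slc47a1, a transporter of organic cations, at r = 0.993, the factor Nfic at 0.990 and the nucleotidase Entpd5 at 0.987. Their log2 fold changes were 1.502, 1.17 and 1.76. Such rises follow from the choice, because Mlxipl itself separated the groups, so they are no further result. With group means removed, r was 0.992 for Slc47a1 and 0.865 and 0.845 for the other 2. For Fasn they were Maoa at 0.977, Slc7a6 at 0.969 and Mex3a at 0.968. For Srebf1 they were Psat1 at 0.961, Akr1c20 at 0.956 and Rpn2 at 0.953, which became 0.892, 0.867 and 0.916 over 6 arrays without knockout 3. With so many genes and 7 arrays, high values of r arise readily, and these are descriptions.

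Other genes of the pathway were taken from 9 lists with 71 genes, of which 61 were tested, and 7 rose and 1 fell, where 4.76% of all tested genes passed. The median log2 fold change over the 61 genes was 0.057. Of the 8 calls, those of Mdh1, Pgls, H6pd, Idh1, Scap and Insr were lost without the variance trend (adjusted p = 0.0595 to 0.0869), and all but Mdh1 of these also with no filter (adjusted p = 0.0552 to 0.0883); Gpd1 and Acss2 passed in both. NADPH supply had the largest share of calls, with 3 of 6 tested genes higher and a median of 0.40. Idh1, the cytosolic isocitrate dehydrogenase, read 2697.4, 4017.8, 8205.9 and 4804.8 in knockout 1 to 4, against 2252.7, 1948.3 and 1311.1 in wild type 1 to 3, and rose by 1.34 ± 0.32 (limma adjusted p = 0.0490), or 1.05 without knockout 3 (adjusted p = 0.0496). Pgls, the lactonase of the cytosolic pentose phosphate pathway, and H6pd, which carries out the first steps of that pathway in the endoplasmic reticulum, rose by 0.52 ± 0.11 and 0.50 ± 0.11 (adjusted p = 0.0353 and 0.0397). These calls were close to the threshold: Idh1, Pgls and H6pd each failed without any 1 wild type array, knockout 2 or knockout 4, with adjusted p up to 0.195, 0.173 and 0.163. The transketolase gene Tkt at -0.51 and the transaldolase gene Taldo1 at -0.39, further along the cytosolic pathway, did not pass. Tkt was at -0.35 without knockout 1, where its value was the lowest. Pgd, also of the cytosolic pathway, was higher in every knockout array, at 0.30 ± 0.13, and did not pass (limma adjusted p = 0.206). Of its 3 other tested probe sets 1 passed, at 0.56 (adjusted p = 0.0449), and the others were at 0.22 and 0.07.

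Genes that supply acetyl-CoA went both ways. Acss2, the cytosolic acetyl-CoA synthetase, read 351.2, 375.8, 527.2 and 367.2 in knockout 1 to 4, against 712.5, 798.1 and 1179.5 in wild type 1 to 3. It fell by 1.10 ± 0.21 on the log2 scale (limma adjusted p = 0.0241), with its other tested probe set at -1.30, and did not pass without knockout 2, knockout 4, wild type 2 or wild type 3 (adjusted p up to 0.119). Mdh1, cytosolic malate dehydrogenase, which makes the malate that Me1 uses, rose by 0.66 ± 0.12 (adjusted p = 0.0203), averaging 14279 ± 1972 in knockout and 8949 ± 424 in wild type livers (SD, n = 4 and 3). Its 3 other tested probe sets were at 0.04, 0.01 and 0.10, and it failed without knockout 4 or any 1 wild type array (adjusted p up to 0.0925). The citrate carrier gene Slc25a1 was at 0.22 (adjusted p = 0.334).

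Among genes that process or oppose SREBP1, Scap, the escort that carries SREBPs to the Golgi, rose by 0.62 ± 0.13 (limma adjusted p = 0.0313). It failed without any 1 wild type array, knockout 2 or knockout 4 (adjusted p up to 0.0922), and its other tested probe set was at -0.13. The other 5 genes of that list did not pass, with Insig1, a target and inhibitor of the same pathway, at -0.39. Insig2 was at -0.54 ± 0.23 (limma unadjusted p = 0.0393, adjusted p = 0.204), with its other tested probe sets at -0.90 and -0.24. Srebf2 was at 0.37 (adjusted p = 0.295). Of the 6 genes of the list 2 were above 0 and 4 below. A further list held SREBP1 targets outside the fatty acid synthesis genes above and the other lists. Of its 5 tested genes 0 passed with limma, and 0 had an unadjusted p under 0.05. The smallest p was that of Gpam, at -0.26 ± 0.20 (adjusted p = 0.479). Me1 and Acss2, which passed, and Scd1 and Acly, with an unadjusted p under 0.05, were not among these 5. The result therefore does not cover all genes that SREBP1 may drive.

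Of 6 tested ChREBP targets outside fatty acid synthesis 1 rose and 0 fell, and 3 had a log2 fold change above 0 and 3 below. Gpd1, the cytosolic glycerol 3-phosphate dehydrogenase, read 2674.3 to 3861.9 in knockout livers, against 430.2 to 720.8 in wild type livers, and rose by 2.57 ± 0.20 (limma adjusted p = 0.00075), also whichever array was left out. Its other tested probe sets were at 2.82, which passed, and 0.55, which did not. The other 5 tested genes did not pass. Pklr, the liver pyruvate kinase, read 405.0, 1610.2, 1941.9 and 669.5 in knockout 1 to 4, against 2186.4, 1977.0 and 1600.6 in wild type 1 to 3, a log2 fold change of -0.97 ± 0.46 (adjusted p = 0.249). Txnip, a sugar-responsive gene, was at -1.13 ± 0.35 (adjusted p = 0.0999) and passed without knockout 4 (-1.50, adjusted p = 0.0143). Khk, which phosphorylates fructose, was higher in every knockout array, at 0.51 ± 0.16 (adjusted p = 0.0991, or 0.0292 with array weights). Tkfc, which acts further along fructose breakdown, was at 1.04 ± 0.51 (adjusted p = 0.262). It passed in 1 of the 7 runs that left out 1 array. The glucose-6-phosphatase gene G6pc was at -0.41 ± 0.20 (adjusted p = 0.263). Fgf21, a hormone of the liver, was too dim to be tested, and read 50.7, 103.2, 88.6 and 119.5 in knockout 1 to 4, against 8.2, 7.8 and 16.8 in wild type 1 to 3, without overlap. Pklr, Txnip, Khk, Tkfc, G6pc, Fgf21, Stab2, Lyve1, Tek, Insig1, Tkt, Taldo1, Pgd and Slc25a1 were named after their values had been seen. The same holds for Insig2, Srebf2, Pecam1, Kdr and Cdh5.

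In the insulin signalling list 1 of 9 genes passed. Insr, the insulin receptor, averaged 2443 ± 372 in knockout and 1466 ± 277 in wild type livers (SD, n = 4 and 3), and rose by 0.74 ± 0.17 (limma adjusted p = 0.0453). Without 1 array it passed only when that array was knockout 1, and the adjusted p was up to 0.139 otherwise. The lists of AMPK and malonyl-CoA control, of LXR and other factors, and of desaturase and elongase relatives had 0 limma calls among 9, 9 and 5 tested genes, of which 3, 1 and 2 had an unadjusted p under 0.05. Their genes of smallest p were Prkaa2, a catalytic subunit of AMPK, at 0.87 ± 0.25 (adjusted p = 0.0786, or 0.0487 without knockout 3), Nr1h3, which encodes LXR alpha, at 0.65 ± 0.23 (adjusted p = 0.145), and Scd2, a desaturase related to Scd1, at -0.74 ± 0.24 (adjusted p = 0.114, or 0.0435 without wild type 2).

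**Figure D5:**
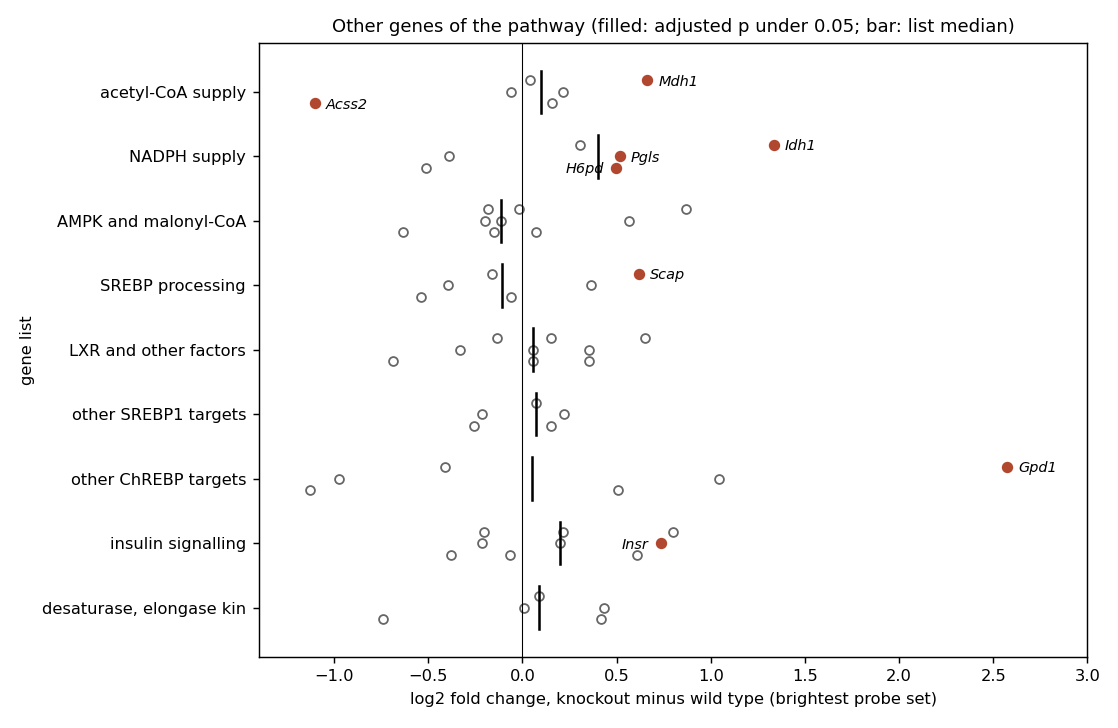
Log2 fold change, knockout minus wild type, of the brightest probe set of 61 other genes of the pathway in 9 lists; each point is a gene, filled where its adjusted p was under 0.05, and bars are list medians. Of the 8 filled points, 7 lie above 0, led by Gpd1 at 2.57, and Acss2 lies at -1.10.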

How the data were processed

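Messenger RNA of 7 livers was measured on 1 array each. Each array has 1 deposited linear intensity per probe set. Per the submitters' processing notes the software was GCOS; its version and the rule for combining probes are not given in sources used here. With the top and bottom 2% trimmed, the deposited intensities of every array averaged 500, a scaling to 1 target. Arrays correlated at r between 0.930 and 0.985, and 0 pairs were identical.

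Intensities were transformed to log2(value + 16), which understates changes of dim probe sets. Of 45101 probe sets, 64 controls were dropped, and the 22518 with a mean above the median were compared with limma 3.58.1 in R 4.3.3 (lmFit, eBayes with a trend, no covariates) and adjusted by Benjamini-Hochberg. Errors are limma standard errors for fold changes and SDs for intensities. Exact permutation tests ran over the 35 splits of 7 arrays into 4 and 3. A gene's value is its brightest probe set. Names came from the platform annotation: 34958 probe sets had 1 symbol, 932 several and 9211 none; of the first, 34754 were found by gene ID in RefSeq. Promoters are from RefSeq (GRCm38.p6). The fit was tested on simulated data with independent noise for each probe set, which hold no array that deviates over many probe sets.

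The text names all members, up to 4 called genes per list or the gene of smallest p, and 3 genes of highest r for Fasn, Srebf1 and Mlxipl. Members, lists and tests were chosen with earlier results of these data known. Alternatives covered the offset, scaling, filter, variance model, array weights, replicate block, threshold, probe set choice and each array left out.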

Additional observations from a re-analysis of the deposited data

Results flagged for a closer look

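Among the 44 probe sets of pathway genes and of adipocyte and pancreas markers that were checked, 4 had 1 knockout array far from the other 3; the gap to the nearest exceeded Dixon's 95% limit for 4 samples. Chance flags about 1 in 20 groups. In all 4 cases that array was knockout 3. Ctrb1 read 3162.7 in knockout 3, against 5.1 to 10.9 in the other knockout arrays. Cpa1 read 497.9, against 5.8 to 8.8. Lep, the leptin gene, read 24.6, against 3.9 to 5.9, all of them dim. Acss2 read 527.2, against 351.2 to 375.8, and it fell past the threshold with or without knockout 3, at -1.10 and -1.23 on the log2 scale. None of the 23 probe sets of the 10 members was among the 4. Not all genes of the pathway lists were checked, so the 4 cases do not show that only knockout 3 stood apart. Tkt, which was not checked, read 7818.3 in knockout 1, against 12124.0 to 12506.6 in the other knockout arrays.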

How the results depend on the processing

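Me1 and Mlxipl kept their direction and their call under each of 18 alternatives, with adjusted p up to 0.0349 for Me1 and 0.029 for Mlxipl. The count of member probe sets past the threshold, 3 of 16, became 7 with array weights, and it ran from 3 to 5 over the runs that left out 1 array, with 5 without knockout 2. The count of member genes, 2 of 9, became 4 with array weights, where Acly at 0.43 (adjusted p = 0.0309) and Scd1 at -1.96 (adjusted p = 0.0101) passed. Scd1 passed in 5 of 18 alternatives and was lower in knockout in all of them. The signs of Acaca, Elovl6 and Srebf1 turned without knockout 3, and that of Acacb without wild type 1. Leaving out 1 array at a time gave -0.095 to 0.34 for Acaca, -0.036 to 0.68 for Acacb, -0.21 to 0.42 for Elovl6 and -0.042 to 0.31 for Srebf1. None of these 4 genes passed under any alternative run. For the sign changes the cause was not tested beyond leaving out the array.

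Replicate numbers were shared by the groups, but deviations of same-numbered arrays correlated at 0.087, -0.056 and 0.055, so the numbers were not taken as pairs. With the replicate block, 3 member probe sets and 2 member genes passed, and over all probe sets 351 passed, against 955 without the block. Of the 8 calls in the pathway lists, 6 were lost with the replicate block (Mdh1, Pgls, H6pd, Idh1, Scap and Insr, adjusted p = 0.0733 to 0.153). The block fit takes nothing from knockout 4, whose number no wild type array shares. Its fold changes for the members equal those without knockout 4, a fit in which 375 probe sets passed. The part of the pairing in the drop was not tested. Scaling arrays to equal medians moved the median log2 fold change of all probe sets from -0.035 to 0.026. Over all probe sets, the number past the threshold ran from 127 (without wild type 3) to 1006 (without knockout 1) when 1 array was left out, and was 2413 with array weights, 584 without the variance trend and 473 with no filter. Of the probe sets of an array, 35.5% to 39.5% lay under an intensity of 50, which limits what can be said of Thrsp and the dim probe sets of Acly and Acacb.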
